A study of Mus musculus with 2 samples.

Results

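The 10 genes described here code for the transcriptional coactivators YAP (*Yap1*) and TAZ (*Wwtr1*), for the DNA-binding factors TEAD1 and TEAD4, for the kinases LATS1 and LATS2, and for the products of 4 widely used YAP target genes, *Ankrd1*, *Ctgf*, *Cyr61* and *Amotl2*. They were chosen from knowledge of the pathway and selected on the ratio of *Ankrd1* between the libraries, which was already known to be among the largest rises. All 10 were found by symbol among the 25810 genes listed for each library. The study asked what the loss of *Igfbp7*, a secreted binding protein of the insulin-like growth factor family, does to the lactating mammary gland. Mammary epithelial cells (MECs) of inguinal glands on lactation day 3 were taken from wild-type (WT) mice and from *Igfbp7*-/- (KO) mice, and poly(A) RNA was sequenced in 1 library per genotype. The KO allele lacks exon 1 of *Igfbp7*, deleted with Cre in embryonic stem cells, and is carried by every cell of the animal. No other allele or agent is named for either group. The sample labels give C57BL/6 as the genetic background of both, whereas the methods describe the KO mice on a CD1 background. Neither the number of animals behind each library nor their age was found in the sources used here. Before RNA extraction, cells carrying leukocyte, endothelial or erythroid surface markers were removed with magnetic beads (CD45, CD31 and Ter119 in the methods, with CD35 in place of CD31 in the labels).

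YAP and TAZ do not bind DNA themselves. When the Hippo kinases MST1 and MST2 (*Stk4* and *Stk3*) activate LATS1 and LATS2, these phosphorylate YAP and TAZ and keep them in the cytoplasm; when the cascade is quiet, both enter the nucleus and bind TEAD factors on the promoters and enhancers of target genes. The pathway reads cell density, cell shape and the stiffness of the matrix. In the mammary gland, YAP and TAZ are known for their roles in basal cells and in the growth of the epithelium during pregnancy. Because YAP and TAZ are controlled largely by phosphorylation and localisation, transcript levels of the genes in this pathway do not report the activity of their proteins.

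The libraries held 34327854 (WT) and 35016847 (KO) mapped reads, of which 28262015 and 25306845 fell on listed genes. Levels are given as reads per 1000000 mapped reads (RPM), and as RPM per kilobase of gene length (RPKM) where different genes are compared. Ratios of KO to WT were computed on the log2 scale after adding 0.1 RPM to both values. With 1 library per genotype there was no replicate check and no test of any difference. "Rose" and "fell" below mean only that the ratio between these 2 libraries was at least 1.5 in that direction. This is the fold threshold of the study, used here without its further cutoffs for P value and sequence quality. The intervals are 95% Clopper-Pearson intervals of the ratio without the added 0.1 RPM. They were computed on read pairs and cover counting error only. *Igfbp7* itself had 5224 reads in WT and 37 reads in KO, a log2 ratio of -7.04. Across the 14026 genes with at least 1 RPM in 1 of the libraries the median log2 ratio was 0.03, with quartiles of -0.52 and 0.51. Scaling to the reads on listed genes, a smaller part of the KO library, raised this median by 0.19. It turned 3006 higher and 3231 lower genes into 4248 higher and 2587 lower genes.

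The promoters of 3 target genes that rose and of *Yap1*, which fell, are shown first because TEAD factors recognise the hexamer CATTCC and its reverse complement GGAATG. Each sequence holds the 250 bases before a RefSeq transcription start site (GRCm38.p6), written 5′ to 3′ on the strand of the gene, with the hexamers in capitals. The windows lie at chr19:36119845-36120094 (*Ankrd1*, minus strand), chr3:145649986-145650235 (*Cyr61*, minus strand), chr9:102717554-102717803 (*Amotl2*, plus strand) and chr9:8004597-8004846 (*Yap1*, minus strand).
Ankrd1: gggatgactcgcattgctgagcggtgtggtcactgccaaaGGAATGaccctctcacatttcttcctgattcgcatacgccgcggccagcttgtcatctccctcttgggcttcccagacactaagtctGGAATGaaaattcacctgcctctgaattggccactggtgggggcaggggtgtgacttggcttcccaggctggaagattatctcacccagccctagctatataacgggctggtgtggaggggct
Cyr61: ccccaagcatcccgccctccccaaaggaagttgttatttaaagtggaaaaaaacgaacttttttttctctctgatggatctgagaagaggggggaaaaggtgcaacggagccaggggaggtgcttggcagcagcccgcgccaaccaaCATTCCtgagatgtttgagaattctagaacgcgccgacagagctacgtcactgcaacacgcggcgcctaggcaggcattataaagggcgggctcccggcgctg
Amotl2: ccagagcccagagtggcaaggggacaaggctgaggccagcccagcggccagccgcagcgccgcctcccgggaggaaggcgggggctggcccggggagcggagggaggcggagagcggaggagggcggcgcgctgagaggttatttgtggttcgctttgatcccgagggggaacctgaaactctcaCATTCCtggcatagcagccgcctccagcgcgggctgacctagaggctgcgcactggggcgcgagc
Yap1: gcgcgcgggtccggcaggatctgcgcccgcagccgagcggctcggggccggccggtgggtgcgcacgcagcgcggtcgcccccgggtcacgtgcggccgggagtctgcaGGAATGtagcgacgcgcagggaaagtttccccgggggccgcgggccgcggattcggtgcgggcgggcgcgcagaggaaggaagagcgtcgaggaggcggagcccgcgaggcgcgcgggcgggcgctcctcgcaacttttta

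*Ankrd1* held 2 matches, beginning 210 and 123 bases before the start site. *Cyr61* held 1 at 103 bases, *Amotl2* held 1 at 65 bases and *Yap1* held 1 at 141 bases. Promoter windows were at hand for 7 of the 10 genes, and 5 of these had at least 1 match, *Wwtr1* being the fifth. The windows of *Lats1* and *Lats2* had none. Among all 32851 promoter windows of the same length, 12.6% held the hexamer on either strand and 1.02% held it at least 2 times. No window of the 7 genes held an AP-1 site (TGANTCA, in 6.75% of all windows) or a CArG box, the site of serum response factor (in 1.47%), each on either strand. The matches therefore stood before genes that rose and before genes that fell. A match is a run of letters and not a measured binding site.

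The 4 target genes did not move together. *Ankrd1*, a nuclear ankyrin repeat protein best known from the stressed heart, went from nearly no reads to a clear signal. In WT 11 reads (0.320 RPM) were counted on it, and in KO 572 (16.3 RPM), a ratio of 51.0 without the added 0.1 RPM. The log2 ratio was 5.29, with an interval of 4.49 to 7.21. The WT level of *Ankrd1* had a 95% Poisson interval of 0.111 to 0.721 RPM on read pairs, so the size of the ratio was poorly fixed while the KO level was not (14.5 to 18.3 RPM). Ordered by ratio it took place 2 from the top of the 8201 genes that reached 10 RPM in either library. This value led to the choice of the genes and is a description.

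*Cyr61* codes for a secreted matricellular protein of the CCN family that binds integrins. It rose from 249.7 RPM (8571 reads) in the WT library to 1077 RPM (37720 reads) in the KO library, with a log2 ratio of 2.11 (2.06 to 2.16). It stood at place 98 from the top among the 8201 genes. Per gene length *Cyr61* moved from place 297 to place 45 among the protein-coding genes detected in the library.

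*Amotl2*, an angiomotin-like scaffold at cell junctions that binds YAP and holds it out of the nucleus, is both a target and an inhibitor of YAP. Its level went from 40.3 RPM in WT (1382 reads) to 106.3 RPM in KO (3721 reads), which gave a log2 ratio of 1.40 (1.27 to 1.53).

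*Ctgf*, the CCN family member most often used as a readout of YAP, went the other way. Its level was 2879 RPM in WT (98837 reads) and 2193 RPM in KO (76802 reads). The log2 ratio of -0.39 (-0.41 to -0.37) stayed within 1.5 times, and it was below 0 under each scaling tried. *Ctgf* was by far the most abundant of the 10 transcripts in both libraries, at place 19 (WT) and place 21 (KO) by RPKM. Measured against each other inside a library, which removes the library total, *Ctgf* exceeded *Cyr61* by 9.67 times per length in WT (9.37 to 9.98) and by 1.71 times in KO (1.68 to 1.74).

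**Figure D1:**
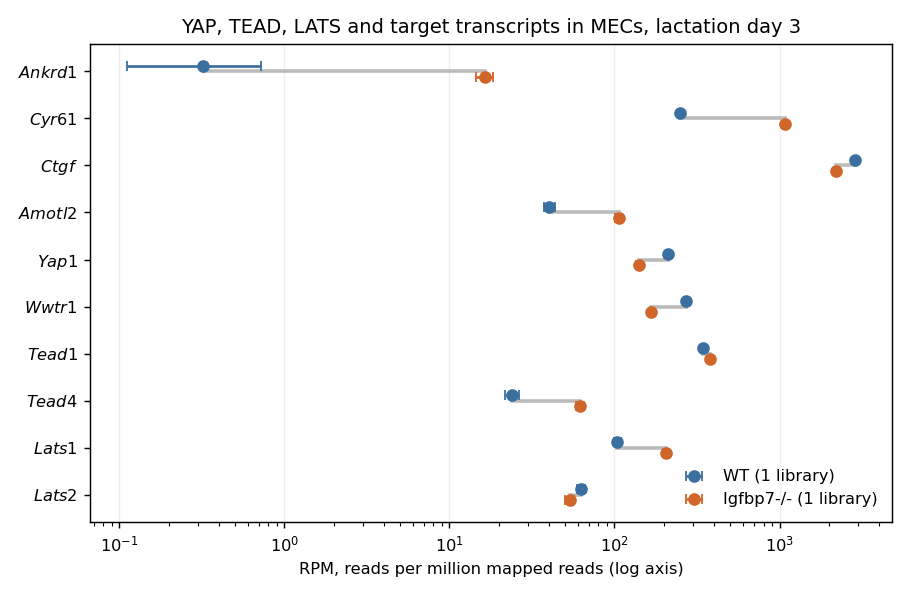
RPM (log axis) of the 10 genes in the WT library (blue) and the KO library (orange), with grey lines joining the values of a gene and bars giving 95% Poisson intervals on read pairs, which are hidden by the points where they are narrow. *Ankrd1* moves from 0.320 to 16.3 RPM, *Cyr61* from 249.7 to 1077 RPM, and *Ctgf*, *Yap1*, *Wwtr1* and *Lats2* lie to the left in KO.

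Both coactivators fell. *Yap1* stood at 211.3 RPM in WT (7253 reads) and at 140.2 RPM in KO (4909 reads), with a log2 ratio of -0.59 (-0.67 to -0.52). It was only just past the threshold, being 1.51 times lower. *Wwtr1*, the gene of TAZ, stood at 271.5 RPM in WT (9319 reads) and at 167.4 RPM in KO (5861 reads), with a log2 ratio of -0.70 (-0.76 to -0.63). Scaled to the reads on listed genes, the ratios of *Yap1* and *Wwtr1* were -0.40 and -0.51 and neither was past 1.5 times. The balance between the coactivators hardly moved: per length *Wwtr1* exceeded *Yap1* by 1.13 times in WT (1.08 to 1.18) and by 1.05 times in KO (0.997 to 1.11). Together they fell from 107.3 to 68.5 RPKM.

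The TEAD factors, which carry YAP and TAZ to DNA, shifted in their proportions. *Tead1* was at 341.9 RPM in WT (11738 reads) and at 380.3 RPM in KO (13318 reads), giving a log2 ratio of 0.15 (0.10 to 0.20) that did not pass 1.5 times. *Tead4* rose from 24.1 RPM (828 reads) to 61.9 RPM (2166 reads), giving a log2 ratio of 1.36 (1.19 to 1.53). Per length *Tead1* was the main TEAD transcript in both libraries, yet its lead over *Tead4* went from 4.38 times in WT (3.96 to 4.85) to 1.90 times in KO (1.78 to 2.03). The remaining TEAD genes are not among the 10. Of these *Tead2* rose from 5.30 to 19.8 RPM (log2 ratio 1.88), and *Tead3* stayed within 1.5 times (11.8 and 16.5 RPM). The summed level of the 4 TEAD genes was 49.2 RPKM in WT and 74.0 RPKM in KO, and the part of *Tead1* in that sum was 69.8% and 51.6%.

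The kinases that restrain YAP and TAZ separated. *Lats1* rose from 103.97 RPM in WT (3569 reads) to 204.3 RPM in KO (7155 reads), with a log2 ratio of 0.97 (0.89 to 1.06). *Lats2*, itself a target of YAP, was at 62.7 RPM (2151 reads) and 53.5 RPM (1874 reads), with a log2 ratio of -0.23 (-0.36 to -0.10) within 1.5 times. Per length the ratio of *Lats1* to *Lats2* was 1.20 in WT (1.11 to 1.29) and 2.76 in KO (2.56 to 2.96). That of *Lats1* to *Yap1* was 0.286 in WT (0.270 to 0.303) and 0.848 in KO (0.805 to 0.893).

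Of the 10 genes, 5 rose, 2 fell and 3 stayed within 1.5 times. Of all 14026 genes kept, 21.4% were higher and 23.0% were lower by the same rule. All 10 genes had at least 1 RPM in both libraries or, for *Ankrd1*, in KO, so the minimum removed none. The choice of the genes used this contrast, and nothing is read from their share. The median log2 ratio of the 10 genes was 0.56. In order of the log2 ratio, overlapping intervals between neighbours were found for *Amotl2* with *Tead4* and for *Yap1* with *Wwtr1*, and the other neighbours differed beyond counting error. By level per length in WT the order was *Ctgf*, *Cyr61*, *Wwtr1*, *Yap1*, *Tead1*, *Lats1*, *Lats2*, *Amotl2*, *Tead4* and *Ankrd1*, from 1191 down to 0.182 RPKM. In KO *Ankrd1* was again the lowest, at 9.25 RPKM, just under *Lats2* at 10.3 RPKM.

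**Figure D2:**
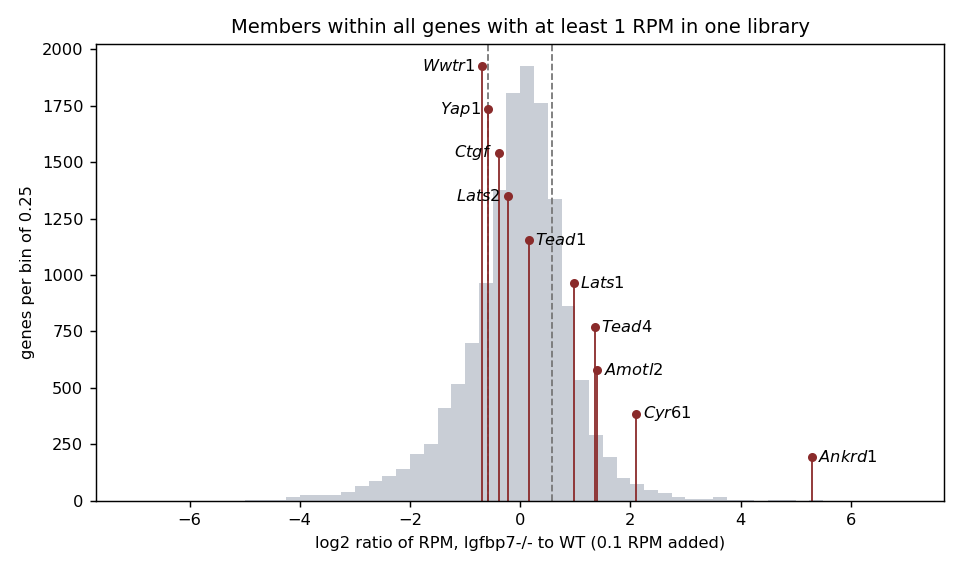
Distribution of the log2 ratio of KO to WT over the 14026 genes with at least 1 RPM in 1 of the libraries (grey bars, bins 0.25 wide), with the 10 genes marked in red at heights chosen only for legibility and dashed lines at 1.5 times. *Ankrd1* at 5.29 and *Cyr61* at 2.11 lie in the right tail, while *Ctgf*, *Lats2* and *Tead1* lie between the dashed lines.

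The families of the members showed which relatives carried each level. In the CCN family *Ctgf* made up 90.0% of the summed RPKM in WT and 62.7% in KO, and *Cyr61* made up 9.30% and 36.7%. The sum itself was 1323 RPKM in WT and 1447 RPKM in KO, so that the family total differed by 1.09 times while its composition shifted. *Nov* (13.9 and 13.0 RPM), *Wisp1* (14.6 and 7.48 RPM) and *Wisp2* (0.845 and 3.57 RPM) were minor, and *Wisp3* had 2 reads in WT and 0 in KO. At this depth 0 reads in KO allow a level of up to 0.211 RPM, the upper Poisson limit on read pairs. Among the angiomotins, *Amotl1* fell from 556.5 to 346.6 RPM as *Amotl2* rose, and *Amot* rose from 13.5 to 24.3 RPM. Per length *Amotl1* exceeded *Amotl2* by 6.47 times in WT (5.99 to 7.001) and by 1.53 times in KO (1.45 to 1.61). The angiomotin sum was 73.9 RPKM in WT and 67.9 RPKM in KO. The relatives of *Ankrd1* in the muscle ankyrin repeat (MARP) family did not follow it. *Ankrd2* had 25 and 17 reads and *Ankrd23* had 54 and 51 reads in WT and KO.

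**Figure D3:**
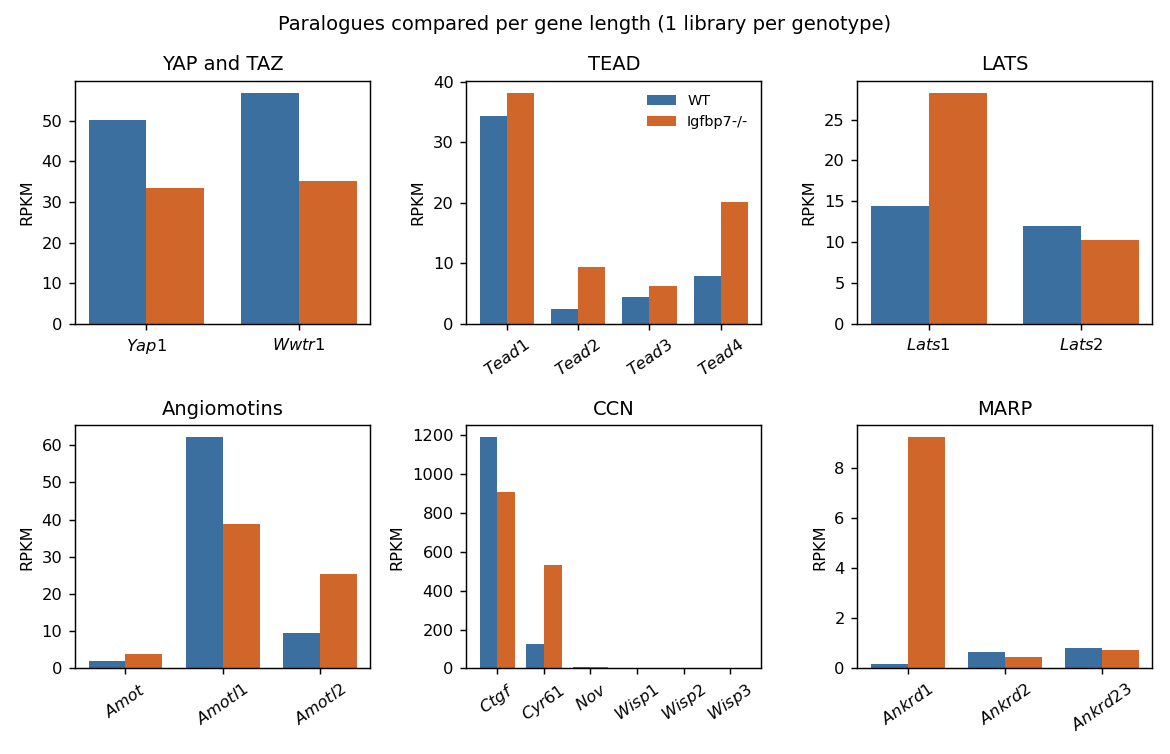
Levels per gene length (RPKM, linear axes from 0, each panel on its own scale) of the YAP and TAZ, TEAD, LATS, angiomotin, CCN and MARP families in the WT library (blue) and the KO library (orange), without error bars because each bar is 1 library. *Yap1* and *Wwtr1* are both lower in KO, *Tead4* and *Tead2* are higher, and *Cyr61* reaches 531.2 RPKM beside 907.1 RPKM of *Ctgf*.

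Other genes of the pathway were taken from lists compiled with earlier results of these libraries known. Of all 14026 genes kept, 21.4% were higher and 23.0% were lower by the same rule, with a median log2 ratio of 0.03. Of 15 kinases and scaffolds, 3 rose, 1 fell and 11 stayed within 1.5 times, with a median log2 ratio of 0.30. The genes that rose were *Wwc1*, which codes for the scaffold KIBRA (14.97 RPM in WT, 54.5 RPM in KO), its relative *Wwc2* (18.8 and 39.7 RPM) and *Mob1b* (listed as *Mobkl1a*), a coactivator of the LATS kinases (18.6 and 36.5 RPM). *Sav1*, the scaffold of the MST kinases, fell from 162.9 to 102.7 RPM (log2 ratio -0.66). Scaled to the reads on listed genes, *Sav1* was not past 1.5 times. The MST genes themselves stayed within 1.5 times, *Stk3* at 14.4 and 15.1 RPM and *Stk4* at 34.99 and 48.1 RPM, as did *Nf2*, which codes for merlin (61.6 and 52.5 RPM).

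Of 16 upstream and junctional regulators, 4 rose, 3 fell and 9 stayed within 1.5 times, with a median log2 ratio of 0.18. The shares over all genes were 21.4% higher and 23.0% lower. *Crb3*, an apical polarity protein, rose from 6.12 to 19.5 RPM, the protocadherin *Fat1* from 215.0 to 479.3 RPM and the polarity protein *Pard3* from 33.2 to 58.2 RPM. *Amot*, given above, was the remaining gene that rose. *Dchs1*, a protocadherin that binds FAT4, fell from 54.7 to 27.9 RPM, and the phosphatase *Ptpn14* fell from 156.4 to 82.3 RPM. *Amotl1* was the other gene that fell (log2 ratio -0.68), and like *Sav1* it was not past 1.5 times when scaled to the reads on listed genes. Of 9 TEAD genes and cofactors, 6 had at least 1 RPM, of which 1, *Tead2*, rose and none fell. *Vgll1* had 0 reads in both libraries and *Vgll2* had 0 and 2 reads.

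The 20 other target genes of YAP moved in both directions. Of the 19 with at least 1 RPM, 5 rose, 7 fell and 7 stayed within 1.5 times, and the median log2 ratio was 0.16 beside 0.03 over all genes. Over all genes the shares were 21.4% higher and 23.0% lower. *F3*, the gene of tissue factor, rose from 84.2 to 275.6 RPM, with a log2 ratio of 1.71 (1.63 to 1.80). *Myof*, which codes for the membrane repair protein myoferlin, rose from 77.9 to 179.7 RPM, *Tgfb2* from 83.8 to 147.5 RPM and *Asap1* from 44.8 to 76.6 RPM. The fifth was *Areg*, the epidermal growth factor receptor ligand amphiregulin, at lower levels (1.40 and 4.91 RPM). Among the genes that fell, *Igfbp3*, an insulin-like growth factor binding protein, went from 645.2 to 160.7 RPM, and *Nt5e*, the gene of the surface enzyme CD73, from 125.9 to 36.0 RPM. *Ccdc80* fell from 106.9 to 54.1 RPM, as did *Ptpn14*, which stands in both lists. *Birc5*, a gene of dividing cells, had 158 and 37 reads. The receptor tyrosine kinase gene *Axl* was at 541.9 and 407.5 RPM and stayed within 1.5 times.

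**Figure D4:**
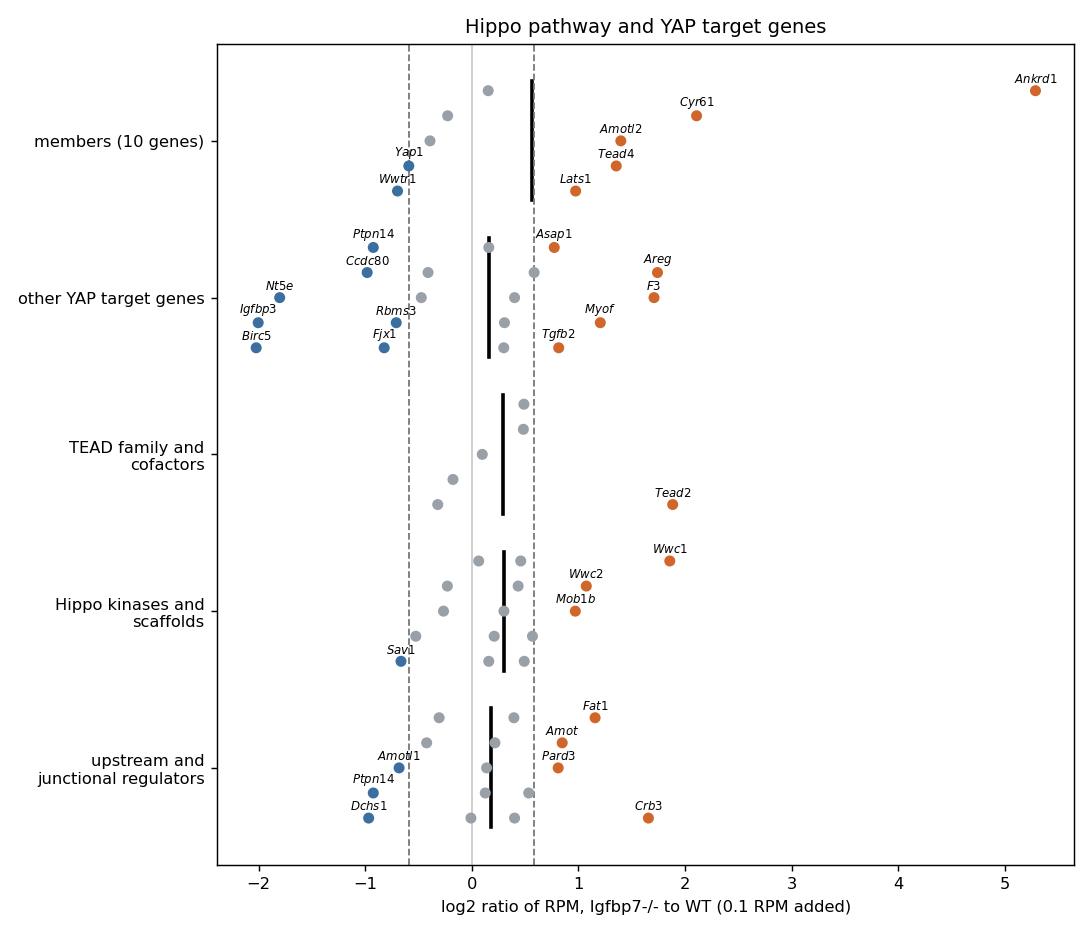
Log2 ratios of KO to WT for the genes of 5 lists with at least 1 RPM in 1 of the libraries, spread vertically only for legibility, in orange where at least 1.5 times higher, in blue where at least 1.5 times lower and in grey otherwise, with a black bar at the median of each list and dashed lines at 1.5 times. The other target genes reach from -2.02 (*Birc5*) to 1.74 (*Areg*), and *Ankrd1* stands apart at 5.29.

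Markers of several cell types moved between the same libraries, and in bulk RNA fewer cells of a type and less RNA per cell cannot be told apart. For the counts below, the shares over all genes were 21.4% higher and 23.0% lower. Transcripts of the epithelial markers *Epcam* (164.1 RPKM in WT, 233.8 RPKM in KO) and *Cdh1* (79.1 and 103.1 RPKM) were present in both libraries, but so were those of other cells, such as the fibroblast marker *Col3a1* (839.4 and 350.6 RPKM). Of 9 luminal and alveolar markers, the keratins *Krt8* (268.1 and 789.0 RPM), *Krt18* (250.4 and 1174 RPM) and *Krt19* (105.5 and 291.8 RPM) rose and the milk protein genes *Csn2* (53087 and 19970 RPM), *Lalba* and *Wap* fell. Of 10 basal and myoepithelial markers 8 fell and none rose, with *Krt5* at 579.3 and 182.3 RPM, and their summed level went from 3922 to 1326 RPM. Of 10 fibroblast markers 5 fell and 1, *Fbln1*, rose from 24.3 to 36.8 RPM (9211 and 4735 RPM summed for the list). Log2 ratios were below 0 for 7 and above 0 for 3, the others being *Pdgfra* (97.0 and 132.8 RPM) and *Pdgfrb* (50.7 and 64.2 RPM). Of 9 endothelial and mural markers 8 fell and none rose (1189 and 406.0 RPM summed). *Pecam1*, the gene of CD31, still had 322.5 RPM in WT and 88.9 RPM in KO after the depletion. By flow cytometry the paper found lineage markers on few of the depleted cells and deemed this contamination insignificant. Of 10 leukocyte markers 9 fell and none rose (726.1 and 151.4 RPM summed). Of 7 adipocyte markers 1, *Lep*, rose (8.04 and 16.8 RPM) and 3 fell, 1 of the 7 being under 1 RPM in both libraries (633.6 and 249.0 RPM summed).

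The summed markers of the basal, fibroblast, endothelial, leukocyte and adipocyte lists were lower in KO. Some of these sums rested largely on 1 gene. In WT, *Fabp4* held 543.5 of the 633.6 RPM of the adipocyte list. *Cd74* held 526.6 of the 726.1 RPM of the leukocyte list, and *Col3a1* held 4670 of the 9211 RPM of the fibroblast list. The summed luminal and alveolar list was lower too (68668 and 27312 RPM). Most of that sum was *Csn2*, and the keratins of the list rose. Of the 10 genes, 6 had a log2 ratio above 0 and 4 (*Yap1*, *Wwtr1*, *Ctgf* and *Lats2*) had one below 0. The part of the listed cell types in the levels of the 10 genes was not tested. Genes of striated muscle, in which *Ankrd1* is abundant, were low and moved in both directions. Of 12 muscle markers 2 had at least 1 RPM. *Ttn*, the gene of the sarcomere protein titin, rose from 75 reads (2.18 RPM) to 252 reads (7.197 RPM), with a log2 ratio of 1.68 (1.18 to 2.29). With a gene length of 101.7 kb, *Ttn* was at only 0.0215 RPKM in WT and 0.0708 RPKM in KO. By RPKM it took place 16529 of 16879 detected protein-coding genes in WT and place 15214 of 16772 in KO. *Des*, also a mural cell marker, fell from 5.04 to 2.43 RPM. Of the other 10, *Mb* (8 and 33 reads) and *Tnnt3* (5 and 10 reads) had more reads in KO. *Acta1* (16 and 4 reads), *Ckm* (14 and 2 reads), *Myh2* (24 and 8 reads) and *Tnni2* (14 and 4 reads) had fewer. *Actc1*, *Myh1* and *Myl1* had 2, 7 and 8 reads in WT and 0 in KO, and *Myh4* had 0 in both. The summed level of the list was 10.1 RPM in WT and 11.4 RPM in KO, of which *Ttn* alone held 2.18 and 7.197 RPM. The part of the list in the level of *Ankrd1* was not tested.

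**Figure D5:**
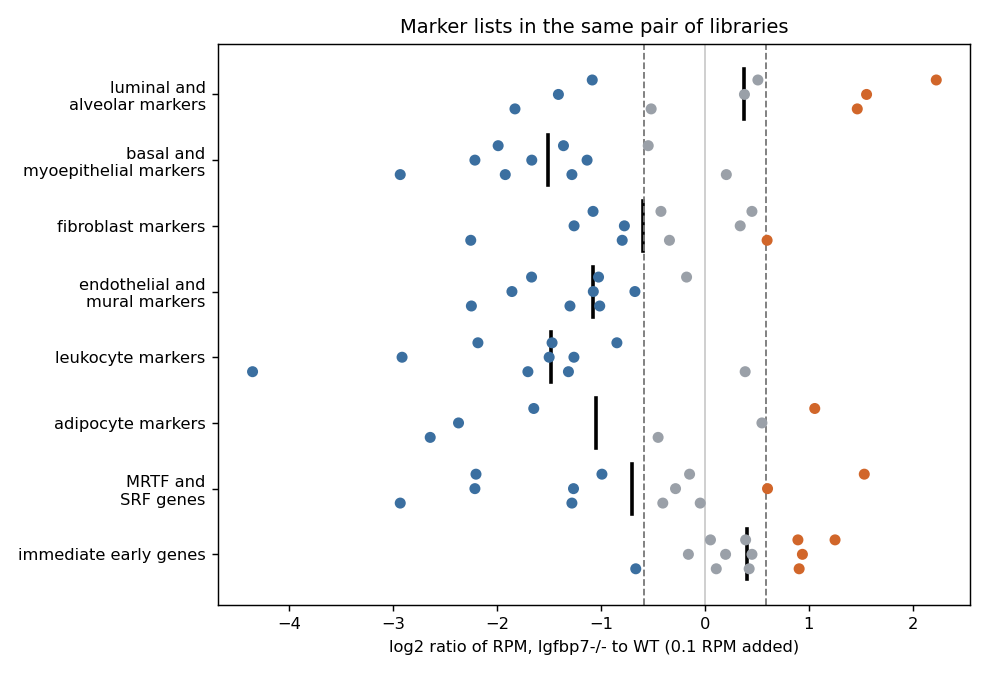
Log2 ratios of KO to WT for cell type markers, for genes of the MRTF and SRF pathway and for immediate early genes with at least 1 RPM in 1 of the libraries, coloured as higher (orange), lower (blue) or within 1.5 times (grey), with a black bar at the median of each list and dashed lines at 1.5 times. The medians of the basal list (-1.51), the endothelial list (-1.07) and the leukocyte list (-1.49) lie left of the dashed lines. So do those of the adipocyte list (-1.05), the MRTF and SRF list (-0.70) and, narrowly, the fibroblast list (-0.599). The medians of the luminal list (0.38) and the immediate early genes (0.41) lie between the dashed lines.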

How the data were processed

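The libraries were made by the authors from poly(A) RNA of lineage-depleted MECs and read as pairs on a SOLiD sequencer. Mapping was done in GeneSifter with a Bowtie-based pipeline. The processing notes name Bowtie 0.12.3, SAMtools 0.1.15 and the mouse build mm9, whereas the methods name a human build. The methods also describe a filter on ribosomal and small nuclear RNA, but genes of both kinds are listed with reads. The deposited files hold, per gene, a read count without normalization. The deposited RPM is that count per 1000000 reads of a fixed library total, obtained here as count over RPM, which includes reads outside the listed genes. The deposited RPKM is the RPM per kilobase of gene length. Rows without a gene symbol were left out (50 per file, with 0.0495% of the WT and 0.0670% of the KO reads). Whether counting used strand is not given in the sources used here. In the NCBIM37 annotation *Yap1*, *Tead1* and *Ctgf* each overlap a noncoding gene on the opposite strand, and the span of *Lats2* overlaps *Xpo4* on its own strand.

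The members and gene lists were chosen with earlier results of these data known. Named genes were all 10 members and, per list, at most 4 genes in each direction past 1.5 times with at least 10 RPM, together with relatives of the members, *Igfbp7* and the 5 genes nearest to *Ankrd1* by ratio, of which 1 is not reported here. Further genes were named after their values were seen. Low counts were mostly even, so intervals were computed on counts divided by 2. Promoter sequences came from RefSeq (GRCm38.p6), where *Cyr61* is listed as *Ccn1*, with no entry used for *Ctgf*, *Tead1* and *Tead4*. Alternatives tried were a pseudocount of 1 RPM or 0.01 RPM, RPKM instead of RPM, a minimum of 10 RPM or none, centring on the median, 3 other scalings, a threshold of 2 times and an interval beyond 1. Ratios and intervals were tested on simulated data. The software was Python 3.11.15, with scipy 1.17.1 for intervals, pandas 2.3.3 and numpy 2.4.6 for tables and matplotlib 3.10.9 for plots.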

Additional observations from a re-analysis of the deposited data

How the results depend on the processing

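No replicate could be left out and no paired analysis was possible because each genotype had 1 library. The 11 alternatives left the direction of the log2 ratio unchanged for all 10 members in the 7 that recompute it, and *Ankrd1* ranged most, from 3.72 with a pseudocount of 1 RPM to 5.63 with 0.01 RPM. The count of members at least 1.5 times higher stayed at 5, or 4 at a threshold of 2 times. The count of members at least 1.5 times lower, 2 as reported, was 0 when scaled to reads on listed genes, 1 without the 20 genes with the highest RPM, 0 with a threshold of 2 times and 0 after taking ribosomal and small nuclear RNA out of the listed genes, a scaling chosen after seeing the data. For the Hippo kinases, regulators and TEAD family, 8 genes higher and 4 lower became 16 and 2 when scaled to reads on listed genes, 17 and 2 on that added scaling, and 5 and 0 with a threshold of 2 times. For the other YAP target genes, 5 higher and 7 lower became 7 and 6 on both of these scalings and 3 and 3 with a threshold of 2 times. Over all genes, 21.4% higher and 23.0% lower became 30.3% and 18.4% when scaled to reads on listed genes, 31.0% and 18.2% on the added scaling, and 9.64% and 13.8% with a threshold of 2 times. Scaling to listed genes uses a KO total that is smaller relative to WT and so raises every ratio. Depth limited *Ankrd1* in WT, *Vgll1*, *Vgll2* and *Wisp3*. The variation between animals was not measured.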

Other observations

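The MRTF and SRF pathway is another route by which actin and cell shape reach *Ctgf*, *Cyr61* and *Ankrd1*. Of 12 listed genes, 10 had a log2 ratio below 0 and 2, *Srf* and *Mkl2*, had one above 0. *Srf*, the gene of serum response factor, rose from 42.9 to 124.5 RPM, with a log2 ratio of 1.54 (1.42 to 1.66). Its cofactor gene *Mkl1* fell from 72.7 to 36.5 RPM and *Mkl2* rose from 62.7 to 95.4 RPM. Beside 21.4% higher and 23.0% lower over all genes, 2 of the 12 genes rose and 6 fell, with a median log2 ratio of -0.70. Of these, *Acta2* (1052 and 226.7 RPM), *Cnn1* (142.9 and 18.6 RPM) and *Tagln* (48.9 and 20.1 RPM) are also markers of myoepithelial cells, whose list fell. *Myl9* and *Tpm1* were the remaining genes that fell, and *Vcl*, at 558.5 and 459.2 RPM, stayed within 1.5 times.

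Of 12 immediate early genes 4 rose, 1 fell and 7 stayed within 1.5 times, beside 21.4% higher and 23.0% lower over all genes. *Fosb* rose from 290.5 to 692.7 RPM, *Junb* from 88.7 to 170.2 RPM, *Egr1* from 389.2 to 730.3 RPM and *Egr2* from 9.44 to 17.6 RPM, while *Fosl1* fell from 87.7 to 55.3 RPM. *Fos* (446.3 and 611.1 RPM) and *Atf3* (356.4 and 467.8 RPM) stayed within 1.5 times. The tissue had been dissociated before RNA extraction, and the part of that step in these levels was not tested.

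With 2 libraries the only pattern to match is the ratio itself. Among the 5 genes with at least 10 RPM whose log2 ratios were nearest to that of *Ankrd1* were AU018091 (0.350 and 22.3 RPM, log2 ratio 5.64), the peptide transporter gene *Slc15a2* (2.85 and 80.2 RPM, 4.76), *Padi4* (0.291 and 10.3 RPM, 4.73) and the chemokine gene *Cxcl17* (1.17 and 23.7 RPM, 4.23).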
